A study of Mus musculus with 24 samples.

Results

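Zfp36 (tristetraprolin), Zfp36l1, Zfp36l2, Rc3h1 (Roquin-1), Rc3h2 (Roquin-2), Zc3h12a (Regnase-1) and Elavl1 (HuR) encode RNA-binding proteins that set the lifetime of cytokine mRNAs and other short-lived transcripts. Their levels were read in WT and BAF180-deficient CD4+ T cells from every array probe whose symbol in the deposited table was 1 of these 7 names. Of the 17871 genes and 25697 probes of the table, 6 of the genes and 9 probes qualified. No probe carried Rc3h2 by symbol, Entrez number, RefSeq accession or synonym, and Rc3h2 was not analysed here.

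BAF180, encoded by Pbrm1, is a subunit of the PBAF form of the SWI/SNF chromatin remodelling complex, and the study asked what its loss does to gene expression in T helper cells. CD4+CD62L+ cells of mice aged 4 to 6 weeks were purified from spleen and lymph node, to 95% purity by the labels (resting Naïve). Part of them was held for 24 h on plates coated with anti-CD3 and anti-CD28 (stimulated Naïve). Others were grown into Th2 cells with the same antibodies, IL-4, anti-IFN-gamma and IL-2 (resting Th2), and part of these received PMA and ionomycin for 1.5 h (stimulated Th2). Each state was arrayed from WT and from BAF180 cKO mice, in which CD4-Cre deletes a floxed Pbrm1 exon from late thymic development onward, so that the deletion lies in T cells and not in the whole animal. There were 3 arrays per group, lettered A, B and C, and 24 in all. The labels call every animal Balb/c, whereas the methods describe a mixed background before the cross to CD4-Cre. By the study's account the arrays rest on 3 WT and BAF180-deficient pairs of mice, and which letters make up a pair is not given in the sources used here.

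The tandem CCCH zinc fingers of the ZFP36 proteins bind AU-rich elements in the 3′ untranslated region and recruit the CCR4-NOT deadenylase, which shortens the poly(A) tail. Roquin proteins recognise stem-loops through their ROQ domain and also call on CCR4-NOT, while Regnase-1 cuts stem-loop mRNAs itself with a PIN nuclease domain. HuR binds AU-rich and U-rich sequence too, but is known mainly for stabilising its targets. In T cells these proteins are known for restraining, or in the case of HuR sustaining, cytokine and costimulatory transcripts.

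The arrays are Illumina MouseRef-8 v2 BeadChips, and levels are given as log2 intensity after background correction and quantile normalization. A probe was called detected on an array at a detection p-value of at most 0.02. Between 8047 and 10689 probes were detected per array, and the number of arrays limits the precision. Pbrm1 itself was lower in every BAF180-deficient group without overlap of the arrays, by a log2 difference between -1.01 (resting Naïve, adjusted p = 0.1207) and -1.86 (resting Th2, adjusted p = 0.00101). Whether its probe reads the deleted exon is not given in the sources used here. All 8 T cell markers tested were detected on every array, but the 6 resting Naïve arrays also held myeloid and B cell transcripts. All 9 myeloid markers tested were detected on each of these 6 arrays, with a summed intensity of 3543 to 12670, against 177.8 to 277.2 on the other 18 arrays. Of those 18 arrays, Csf1r was detected on 15, Fcer1g and Lyz1 on 8 each, Cd68 on 7, S100a8 on 2, and Lyz2, Cd14, Tyrobp and S100a9 on none. The summed intensity of the 7 B cell markers tested was 730 to 1718 on the resting Naïve arrays and 136.2 to 612.9 elsewhere.

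Zfp36 had a high level in resting Naïve cells and a far lower one in every other state. Resting Naïve WT arrays read 11.93, 11.93 and 11.82, and the BAF180-deficient ones 11.93, 12.30 and 11.76. After stimulation the WT Naïve arrays read 8.34, 7.97 and 7.95. Resting Th2 WT arrays read 8.11, 8.47 and 7.88. The 6 resting Naïve arrays stood apart from all the others, whose highest value was 8.59, while the 3 remaining states overlapped one another.

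**Figure D1:**
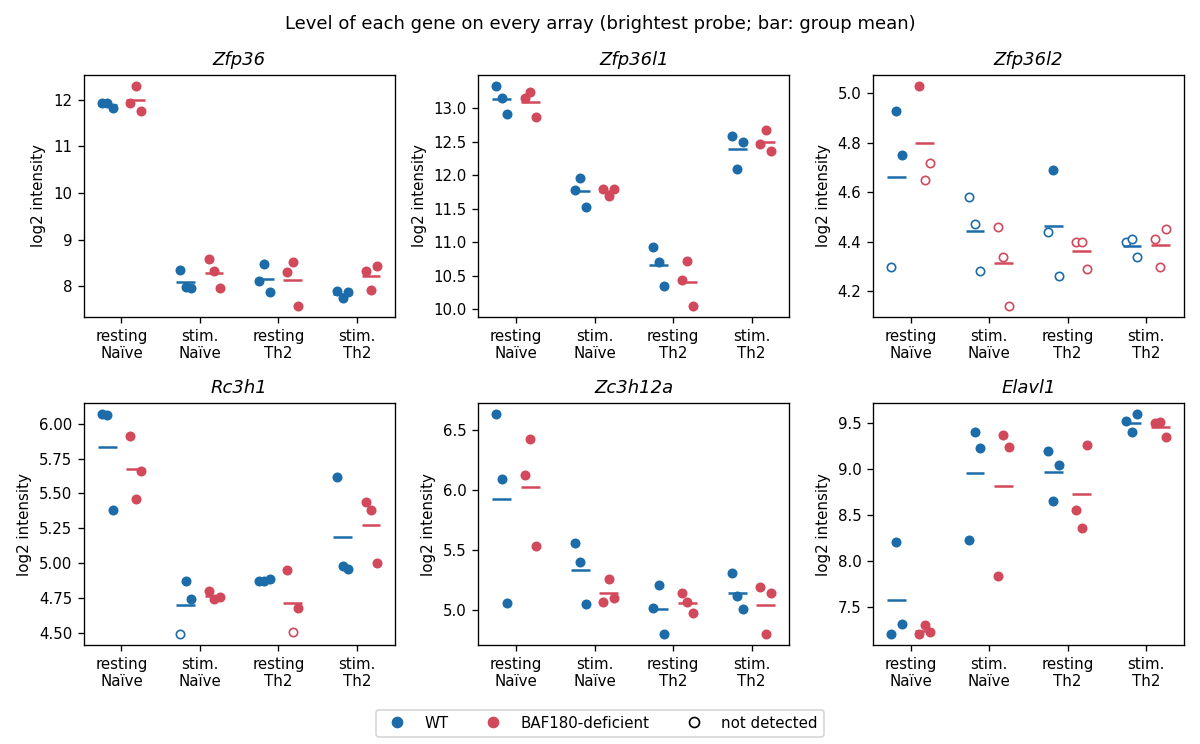
Log2 intensity (y axis) of each gene's brightest probe on every array, by state (x axis) and genotype. Each point is 1 array, open where the probe was not detected, and bars are means of 3 arrays. Zfp36 on the resting Naïve arrays lay between 11.76 and 12.30, above every other array, and Zfp36l1 was between 12.09 and 12.67 in stimulated Th2 cells against 10.05 to 10.93 in resting ones.

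Against resting Naïve cells, Zfp36 fell by 3.81 (SE 0.22) on the log2 scale in stimulated Naïve WT cells, a 14.05-fold lower level (limma, adjusted p = 4.49e-11), and the difference in BAF180-deficient cells was -3.71. It fell by 3.74 from resting Naïve to resting Th2 WT cells (adjusted p = 6.32e-11), with -3.87 in BAF180-deficient cells. With the arrays scaled to a common median instead of quantile normalized, which put the median of all kept probes at 0.24 and 0.32 in these WT comparisons, the Zfp36 differences in WT were -2.65 and -2.73, both called. These falls ran beside the loss of the myeloid transcripts described above, and the part of those transcripts in the Zfp36 values, or in any other comparison with resting Naïve cells, was not tested. Fos, an immediate-early gene, followed the same division, at 11.11 to 11.46 on the resting Naïve arrays and 4.82 to 7.02 elsewhere. In such bulk samples, fewer cells of a type and less RNA per cell cannot be told apart. Stimulation of Th2 cells gave no called change in Zfp36, at -0.32 (95% interval -0.78 to 0.14) in WT and 0.09 (-0.37 to 0.55) in BAF180-deficient cells.

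Zfp36l1 shared both falls with Zfp36 and parted from it in Th2 cells, where it rose 1.5 h after PMA and ionomycin. Resting Naïve WT arrays read 13.33, 13.15 and 12.91, and stimulated Naïve WT arrays 11.78, 11.96 and 11.53. Resting Th2 WT arrays read 10.93, 10.70 and 10.35, and stimulated Th2 WT arrays 12.59, 12.09 and 12.49. In both genotypes the order was resting Naïve, stimulated Th2, stimulated Naïve and resting Th2 from high to low, and no neighbours in that order overlapped after quantile normalization. The top 2 places depended on it. In raw intensity resting Naïve WT arrays read 4532.9 to 4827 and stimulated Th2 WT arrays 5312.4 to 11386.1, and with median scaling the WT means were 12.23 and 12.75.

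In WT cells Zfp36l1 fell by 1.37 (SE 0.19) with Naïve stimulation (adjusted p = 4.429e-06) and by 2.47 from resting Naïve to resting Th2 cells (adjusted p = 2.415e-09). It rose by 1.73 (SE 0.19) with Th2 stimulation, a 3.32-fold higher level (adjusted p = 4.913e-07). The values in BAF180-deficient cells were -1.32, -2.67 and 2.10, each with an adjusted p below the threshold. On the 12 Th2 arrays of this rise Csf1r was detected on 9, Fcer1g on 4, Lyz1 and Cd68 on 3 each, and the other 5 myeloid markers on none. The fall in stimulated Naïve cells was smaller with median scaling, at -0.45 (adjusted p = 0.2499) in WT and -0.38 (adjusted p = 0.3244) in BAF180-deficient cells, which ended both calls.

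Zfp36l1 was read by 3 probes, which moved the same way in all these comparisons after quantile normalization. With Th2 stimulation in WT cells the 2 dimmer probes rose by 2.22 and 2.22, and in BAF180-deficient cells by 2.90 and 2.47. With Naïve stimulation in WT cells they stood at -1.23 and -0.80, both with adjusted p below 0.05, but for each the resting and stimulated arrays overlapped. Their mean raw intensities went from 675.5 to 643.1 and from 69.93 to 67.2 there. In BAF180-deficient cells these means went from 656.8 to 666.5 and from 87.37 to 70.37. The dimmest had a raw intensity of 45.4 to 323.3. The listed positions of the 2 dimmer probes share 31 bases, yet their sequences do not match there, so these positions cannot both be right and are not used here.

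The promoters of Zfp36 and Zfp36l1 are shown because the 2 genes fell together in 2 comparisons and parted in Th2 stimulation. The 250 bases before each RefSeq start are given 5′ to 3′ on the gene's strand (GRCm38.p6), with matches to the searched motifs in capitals. Zfp36 lies at chr7:28379229-28379478 and Zfp36l1 at chr12:80113014-80113263, both on the minus strand.
Zfp36: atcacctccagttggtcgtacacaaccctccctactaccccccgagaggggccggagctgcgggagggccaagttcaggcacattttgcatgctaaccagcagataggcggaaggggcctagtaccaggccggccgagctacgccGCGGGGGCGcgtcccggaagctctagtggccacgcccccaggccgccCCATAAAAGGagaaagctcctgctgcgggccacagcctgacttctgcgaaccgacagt
Zfp36l1: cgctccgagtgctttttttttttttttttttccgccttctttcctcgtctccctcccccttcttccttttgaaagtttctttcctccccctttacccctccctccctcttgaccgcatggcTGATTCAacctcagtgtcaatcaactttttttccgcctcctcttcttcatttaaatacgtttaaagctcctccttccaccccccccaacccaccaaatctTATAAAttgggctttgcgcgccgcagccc

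Motifs were searched on both strands in this window and in the same window of all 32851 RefSeq promoters. In Zfp36 the capitals mark GCGGGGGCG, the motif of EGR factors (105 to 97 bases before the start, in 2.57% of all promoters), and a CArG box, the motif of serum response factor (58 to 49 bases before, in 1.47%). In Zfp36l1 they mark TGANTCA (129 to 123 bases before, in 6.75%) and TATAAA (29 to 24 bases before, in 12.4%). TGANTCA is a loose form of the AP-1 motif that allows any central base. The match in Zfp36l1 has a T there, where the AP-1 consensus has C or G. TGACGTCA, the cAMP response element, held by 1.55% of promoters, was in neither. Among the others only Rc3h1 held a match, to TGANTCA (133 to 127 bases before the start), while Rc3h2, Zc3h12a and Elavl1 held none of the 5 motifs. No RefSeq promoter was at hand for Zfp36l2. These matches describe letters and are not shown to be bound.

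The only probe of Zfp36l2 read at or near background. It is listed at base 20 of the transcript and was detected on 4 of 24 arrays, with a raw intensity of 33.3 to 48.9. Whether the rest of the transcript would read as low was not tested, so the level of Zfp36l2 itself is not known from these arrays. WT arrays read 4.30, 4.93 and 4.75 in resting Naïve and 4.58, 4.47 and 4.28 in stimulated Naïve cells, which overlap (adjusted p = 0.2746). Without resting Naïve WT replicate A that WT difference was -0.39 and passed (limma, adjusted p = 0.0387). In BAF180-deficient cells Zfp36l2 was called lower in stimulated Naïve (adjusted p = 0.01239) and in resting Th2 cells (adjusted p = 0.02938) than in resting Naïve cells. It was detected on 1 of the 3 resting Naïve arrays and on none of the others in these comparisons, and raw intensities of 43.5 to 48.5 in resting Naïve and 44.7 to 46.8 in resting Th2 cells overlapped, so no fold is given. Median scaling ended both calls (adjusted p = 0.05586 and 0.09091), as did fitting the arrays of the comparison alone (adjusted p = 0.08149 and 0.05563), and leaving out background correction ended the second (adjusted p = 0.07643). The first call was also lost without resting Naïve replicate A (adjusted p = 0.07746) or stimulated Naïve replicate C (adjusted p = 0.06746). The second was lost without resting Naïve replicate A (adjusted p = 0.1465) or any of the 3 resting Th2 arrays (adjusted p = 0.05306 to 0.09276).

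Rc3h1, whose product Roquin-1 represses Icos and other mRNAs, was lower in stimulated Naïve and resting Th2 cells than in resting Naïve cells. Resting Naïve WT arrays read 6.07, 6.06 and 5.38, stimulated Naïve WT arrays 4.49, 4.87 and 4.74, and resting Th2 WT arrays 4.87, 4.87 and 4.89. The resting Naïve arrays stood above both other groups without overlap. Rc3h1 fell by 1.14 (SE 0.20) with Naïve stimulation in WT cells (adjusted p = 8.103e-05) and by 0.91 in BAF180-deficient cells. From resting Naïve to resting Th2 cells it fell by 0.96 (adjusted p = 0.0007426) and by 0.97. With median scaling the WT difference between Th2 and Naïve cells was -0.32 (adjusted p = 0.09696). In raw terms all values lay between 44.9 and 71.1, close to the median raw intensity of an array, 40.6 to 48.9.

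Stimulated Th2 arrays read higher than resting ones for Rc3h1 in both genotypes, with 5.62, 4.98 and 4.96 against the 3 resting values in WT cells. The WT difference of 0.31 did not pass (adjusted p = 0.2909). In BAF180-deficient cells it rose by 0.56 (adjusted p = 0.04134). That call was lost without resting Th2 replicate B (0.46, adjusted p = 0.1684) or C (0.54, adjusted p = 0.09234), and without stimulated Th2 replicate A (0.48, adjusted p = 0.1513) or B (0.51, adjusted p = 0.1327). It was also lost with median scaling, without background correction and without the detection filter.

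Zc3h12a was dim in every state. Its brighter probe was detected on all 24 arrays with a raw intensity of 49.4 to 73.4, and the other on none. Normalized levels were 6.63, 6.09 and 5.06 in resting Naïve WT cells and 5.02, 5.21 and 4.80 in resting Th2 WT cells, which overlap. Raw intensities hardly separated these groups, at 71.2, 63.0 and 53.7 against 65.3, 55.6 and 50.9. The resting Th2 level was called lower in both genotypes, at -0.92 in WT (SE 0.27, adjusted p = 0.01282) and -0.96 in BAF180-deficient cells (adjusted p = 0.009435). With Naïve stimulation the WT difference of -0.59 did not pass (adjusted p = 0.08946), whereas BAF180-deficient cells fell by 0.88 (adjusted p = 0.01309). With median scaling none of these calls was kept, and the WT difference with Naïve stimulation was 0.02. The call in resting Th2 WT cells was also lost without resting Naïve replicate A (-0.56, adjusted p = 0.1109) or resting Th2 replicate C (-0.81, adjusted p = 0.05518). In BAF180-deficient cells both calls were lost without resting Naïve replicate B, at -0.68 (adjusted p = 0.08122) with stimulation and -0.76 (adjusted p = 0.06239) in Th2 cells.

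Elavl1 had its lowest level in resting Naïve cells. Resting Naïve WT arrays read 7.20, 8.21 and 7.31, and BAF180-deficient ones 7.20, 7.30 and 7.22. Stimulated Naïve WT arrays read 8.23, 9.40 and 9.23, just clear of the resting ones. Resting Th2 WT arrays read 9.20, 8.65 and 9.04 and overlapped the stimulated Naïve ones. Stimulated Th2 WT arrays, at 9.52, 9.40 and 9.60, had the highest mean, 9.51.

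Elavl1 rose by 1.38 (SE 0.35) with Naïve stimulation in WT cells, a 2.61-fold higher level (adjusted p = 0.002802), and by 1.58 in BAF180-deficient cells (adjusted p = 0.0009165). Resting Th2 cells were 1.39 above resting Naïve cells in WT (adjusted p = 0.003856) and 1.49 in BAF180-deficient cells (adjusted p = 0.002279). Th2 stimulation gave 0.54 (adjusted p = 0.295) and 0.73 (adjusted p = 0.1404), neither called, although the 3 stimulated arrays lay above the 3 resting ones in both genotypes. Fitted to the arrays of that comparison alone, the difference in BAF180-deficient cells passed (limma, adjusted p = 0.0342). Median scaling made the Naïve difference larger, 2.34 in WT, and that of Th2 against Naïve cells 2.18.

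**Figure D2:**
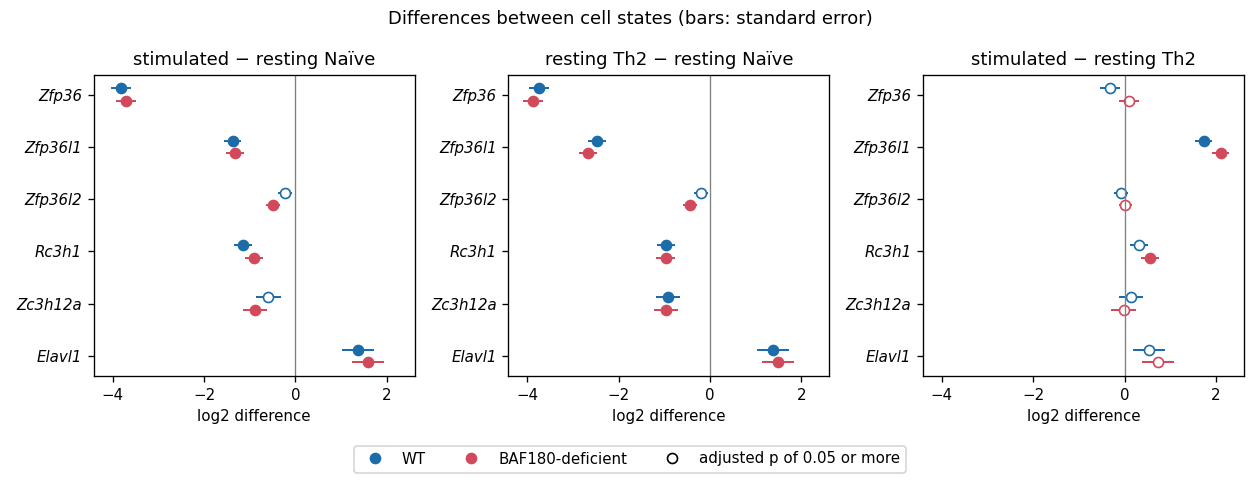
Log2 difference between states (x axis) for each gene (y axis), by genotype, with bars of 1 standard error and open points where the adjusted p was 0.05 or more. Zfp36 lies at -3.81 and -3.74 in the left and middle panels for WT cells, and Zfp36l1 at 1.73 in the right panel.

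Counted together in WT cells, 3 of the 6 genes fell and 1 rose with Naïve stimulation, where 21.9% of the 10418 genes tested fell and 23.3% rose. Between resting Naïve and resting Th2 cells 4 fell and 1 rose, against 17.6% and 17.9% of all genes. With Th2 stimulation 1 rose and none fell, against 12.5% and 15.9%. In BAF180-deficient cells the counts were 5 lower and 1 higher with Naïve stimulation (background 21.3% and 22.1%), 5 lower and 1 higher for Th2 against Naïve cells (17.5% and 18.2%), and 2 higher and none lower with Th2 stimulation (11.7% higher, 15.4% lower). These counts include the dim Zfp36l2, Rc3h1 and Zc3h12a, of which only Rc3h1 was called with Naïve stimulation in WT cells. The median difference of the 6 genes was -0.86 with Naïve stimulation, -0.94 for Th2 against Naïve and 0.23 with Th2 stimulation in WT cells, beside -0.01, 0.00 and -0.01 over all genes. The first 2 comparisons share the resting Naïve arrays.

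**Figure D3:**
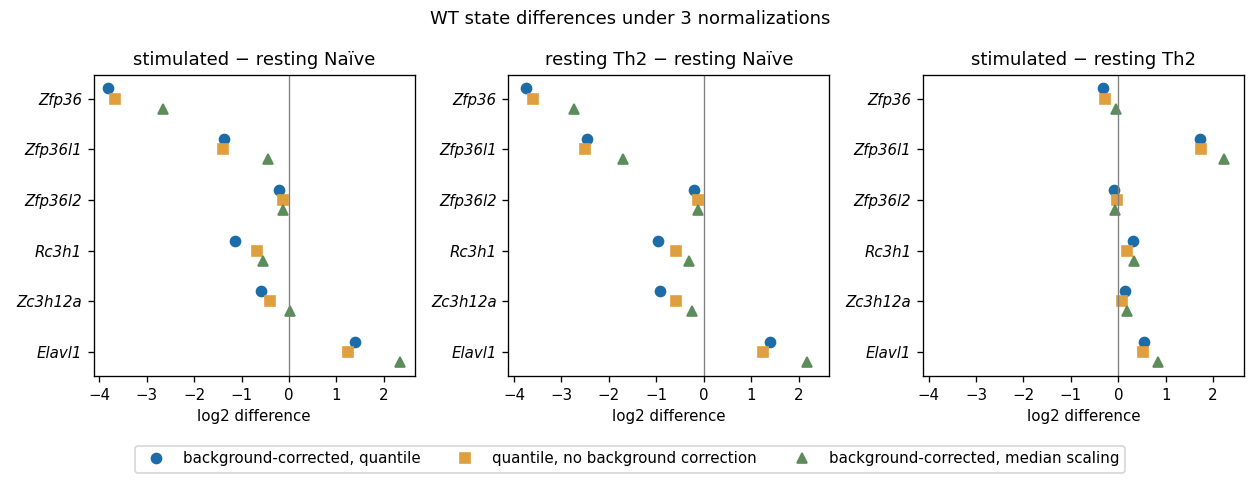
WT log2 difference between states (x axis) for each gene (y axis) under 3 normalizations of the same arrays, each point the difference of means of 3 arrays. Zfp36l1 with Naïve stimulation moves from -1.37 to -0.45 under median scaling and Zc3h12a from -0.59 to 0.02, and Zfp36 from -3.81 to -2.65.

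The effect of stimulation was set side by side in the 2 cell types, in a contrast added after the data had been seen. The stimuli and their durations differ between Naïve and Th2 cells, so cell type and stimulus cannot be told apart. The stimulation effect in Th2 minus that in Naïve WT cells passed for Zfp36, Zfp36l1 and Rc3h1, 3 of the 6 genes, where 26.1% of all genes passed. The same 3 genes passed in BAF180-deficient cells, where 27.5% of all genes did. The contrast includes the resting Naïve arrays with their myeloid transcripts, whose part in it was not tested.

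None of the 6 genes was called between BAF180-deficient and WT cells by a rule adapted from the methods. It asks for a p under 0.05, an FDR under 0.3 and a Z-ratio past 1.5. Here the Z-ratio was the log2 difference divided by the standard deviation of these differences over all kept probes, not a difference of Z-scores. The further criterion of the methods, a mean signal above 0, was not applied. The shares that follow are therefore not comparable with the counts the study reported. The share of all genes called was 0.758% in resting Naïve, 0.115% in stimulated Naïve, 0.106% in resting Th2 and 0.096% in stimulated Th2 cells, so that a count of 0 of 6 lies near the background. No gene reached an unadjusted p of 0.05 in limma in any state by its brightest probe. In resting Naïve cells the differences ran from -0.33 for Elavl1 to 0.14 for Zfp36l2, and in stimulated Naïve cells from -0.19 for Zc3h12a to 0.21 for Zfp36. In resting Th2 cells they ran from -0.25 for Zfp36l1 to 0.06 for Zc3h12a.

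The widest difference in stimulated Th2 cells was that of Zfp36. WT arrays read 7.89, 7.74 and 7.87, and BAF180-deficient arrays 8.33, 7.91 and 8.43. The groups did not overlap, but the difference of 0.39 had a 95% interval from -0.07 to 0.85 (limma, adjusted p = 0.9999). With median scaling it was 0.07. The dimmest of the 3 Zfp36l1 probes gave 0.51 in resting Naïve cells, past an unadjusted p of 0.05 but not past adjustment (limma, adjusted p = 0.7292), where the other 2 probes gave -0.05 and -0.19.

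**Figure D4:**
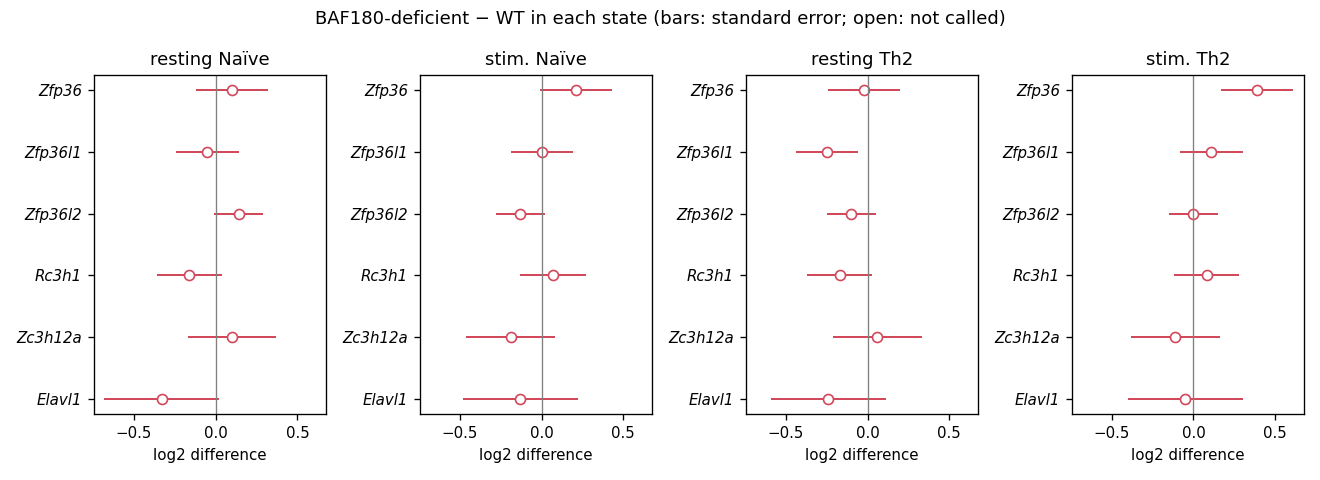
Log2 difference, BAF180-deficient minus WT (x axis), for each gene (y axis) in the 4 states, with bars of 1 standard error over 3 arrays per group. All points are open because none was called, and the farthest from 0 are Zfp36 in stimulated Th2 cells at 0.39 and Elavl1 in resting Naïve cells at -0.33.

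No difference between genotypes in the response to stimulation was called. The interaction of genotype and stimulation ran from -0.29 for Zc3h12a to 0.23 for Rc3h1 in Naïve cells, and from -0.16 for Zc3h12a to 0.41 for Zfp36 in Th2 cells, the latter turning to -0.41 with median scaling. None of the 6 was called or reached an unadjusted p of 0.05 in limma, where 0.0096% of all genes were called in Naïve and 0% in Th2 cells. Averaged over the 4 states, the genotype difference ran from -0.19 for Elavl1 to 0.17 for Zfp36, with none called and none at an unadjusted p of 0.05 (limma), where 0.374% of all genes were called.

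The machinery that these proteins recruit was read from lists of the deadenylases, decapping factors and exosome, set with earlier results of these data known. Of all genes in WT cells, 23.3% rose and 21.9% fell with Naïve stimulation. The shares were 17.9% and 17.6% for Th2 against Naïve cells and 12.5% and 15.9% with Th2 stimulation. List counts near these shares are a description only. Of the 12 deadenylase genes tested, which comprise CCR4-NOT, PAN and their BTG/TOB adaptors, 5 fell and 1 rose with Naïve stimulation in WT cells, with a median of -0.33 beside -0.01 over all genes. Btg1, an adaptor of the CAF1 nuclease, fell by 2.66 and Tob1 fell by 1.97, whereas Cnot9 rose by 0.97. For Th2 against Naïve cells 5 fell, among them Tob2 (-2.43) and Btg1 (-2.35), and 2 rose (median -0.40). With Th2 stimulation 3 fell and 1 rose, and the one that rose was Btg1, by 0.93 (adjusted p = 0.0003217). Btg1 was also the gene whose 8 group means were most like those of Rc3h1.

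Of the 14 decapping and 5′ to 3′ decay genes, 6 rose and 4 fell with Naïve stimulation (median 0.29), beside 23.3% and 21.9% of all genes. The LSM ring genes Lsm7 and Lsm2 rose by 1.91 and 1.83, while Ddx6, the helicase of the decapping complex, fell by 1.12. With Th2 stimulation none rose and 4 fell (12.5% and 15.9% of all genes), led by the scavenger decapping enzyme Dcps, which fell by 0.92. Between resting Naïve and resting Th2 cells 2 rose and 4 fell (17.9% and 17.6% of all genes). The latter included Edc4, which fell by 1.02, and the exonuclease Xrn1, which fell by 0.82.

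Of the exosome genes, 8 of 14 rose and 1 fell with Naïve stimulation (median 0.61), beside 23.3% and 21.9% of all genes. With Th2 stimulation 4 rose and 2 fell (median 0.26), beside 12.5% and 15.9%. For Th2 against Naïve cells 4 rose and none fell (median 0.12), beside 17.9% and 17.6%. Exosc2, a cap subunit, rose by 1.97 and by 1.14 in the 2 stimulations. Exosc6 was not detected in resting Naïve WT cells and was at least 2.13-fold higher after Naïve stimulation.

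Of 12 other AU-rich element binders and partners, 5 rose and none fell with Naïve stimulation (median 0.44), beside 23.3% and 21.9% of all genes. Celf1, a binder of GU-rich elements, rose by 1.96 and Zc3h12d, a relative of Regnase-1, by 1.31. With Th2 stimulation 4 rose and none fell (median 0.39), beside 12.5% and 15.9% of all genes. Mapkapk2, the kinase known to phosphorylate tristetraprolin, rose by 2.37 in WT and 2.44 in BAF180-deficient cells there, and with Naïve stimulation it stood at 0.07 in WT and rose by 0.63 in BAF180-deficient cells (adjusted p = 0.04911). For Th2 against Naïve cells 3 rose, among them Pcbp1 by 0.90, and Tia1 alone fell, by 0.63, beside 17.9% and 17.6% of all genes.

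A list of mRNAs described as targets of these proteins was set from background knowledge, with earlier results of these data known. It is thus not independent of these data, and its counts are a description. Of its 26 mRNAs tested, 18 rose and 1 fell when Th2 cells were stimulated in WT, beside 12.5% and 15.9% of all genes. Their median was 1.82, beside -0.01 over all genes. Csf2, detected on 1 of 3 resting Th2 WT arrays, rose by 6.50, and Il3, not detected in resting Th2 WT cells, was at least 396-fold higher. Bcl2 was the 1 that fell, by 1.87. Naïve stimulation raised 12 and lowered 7 (median 0.31), beside 23.3% and 21.9% of all genes. Irf4 rose by 3.12 and Il3 was at least 7.77-fold higher, while Fos stood at -5.75 and Nfkbiz at -3.02. For Th2 against Naïve cells 7 rose and 7 fell (median 0.21), beside 17.9% and 17.6% of all genes. Il2ra rose by 2.87 and Il4 by 2.49, while Fos stood at -5.22 and Nfkbid at -3.93.

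The list counts depended on the normalization, as a comparison added after the data had been seen shows. With median scaling, which put 28.1% of all genes higher and 6.1% lower with Naïve stimulation in WT cells (median 0.25), the deadenylases gave 3 higher and 2 lower, with a median of 0.60 in place of -0.33. The decapping genes gave 8 higher and none lower there, the exosome genes 10 and none, the other binders 8 and none, and the target mRNAs 12 and 5. With Th2 stimulation in WT cells, where 7.44% of all genes were higher and 5.44% lower, no decapping gene was called, 2 exosome genes were higher and none lower, 1 deadenylase and 1 other binder were higher, and the target mRNAs again gave 18 higher and 1 lower. For Th2 against Naïve cells in WT, where 23.5% were higher and 4.66% lower, the deadenylases gave 2 higher and 2 lower (median 0.42), the decapping genes 5 higher and none lower, the exosome genes 3 and none, the other binders 4 and none, and the target mRNAs 9 and 5.

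**Figure D5:**
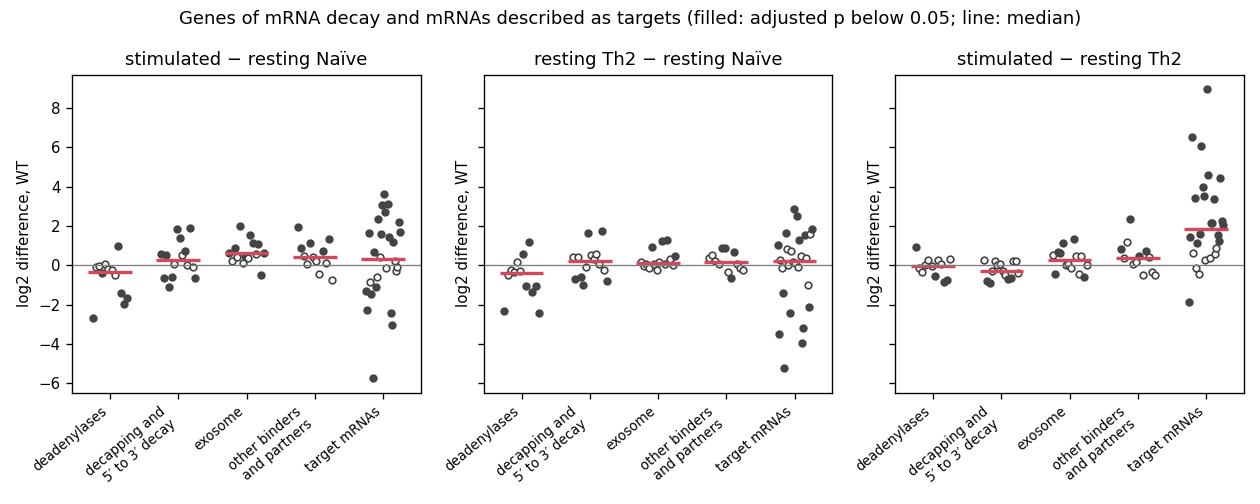
Log2 difference between states in WT cells (y axis) for the genes of 5 lists (x axis), each point 1 gene, filled where the adjusted p was below 0.05, with a red line at the list's median. The target mRNAs in stimulated Th2 cells have a median of 1.82, while the medians of the other 4 lists there lie between -0.30 and 0.39.

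The genes whose levels most resembled each member were ranked by Pearson correlation over the 8 group means among 4763 genes that varied across groups, as a description. The 8 points share their normalization and the large step at resting Naïve cells. Zfp36 was most like Scamp5, Apoe and Nr1h3 (0.998 each). Apoe and Nr1h3, which encode apolipoprotein E and a liver X receptor prominent in macrophages, had group means of 7.29 and 7.70 in resting Naïve WT cells and of 4.19 and 4.39 in resting Th2 WT cells. Zfp36l1 was most like Csnk1d (0.993), Nfkbia (0.986) and Dusp2 (0.980). Nfkbia encodes the NF-kappaB inhibitor and Dusp2 a MAP kinase phosphatase, and their means went from 6.82 and 7.89 in resting to 9.59 and 10.54 in stimulated Th2 WT cells. Rc3h1 was most like Btg1 (0.995), Zc3h12a like Sertad2 (0.997) and Elavl1 like Mfsd5 (0.996). The values for Zfp36l2, near background, were at most 0.976. Between members, the correlation over the 8 group means was 0.68 for Zfp36 with Zfp36l1 and -0.95 for Zfp36 with Elavl1.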

How the data were processed

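RNA of 24 samples was labelled and hybridized to MouseRef-8 v2 BeadChips by the authors, who deposited GenomeStudio (version 1.6.0 in the submitters' processing notes) mean bead intensity per probe, not normalized and without background subtraction, and a detection p-value per probe and array. The members and gene lists were chosen with earlier results of these data known. Intensities were background-corrected (neqc, offset 16), log2 transformed and quantile normalized (limma 3.58.1, R 4.3.3). Probes with p of at most 0.02 on any array, 14246 in all, were kept. A gene was read from its brightest kept probe. A model of 8 group means was fitted to all arrays (lmFit, eBayes) with Benjamini-Hochberg adjustment over kept probes. Genotype calls used the thresholds of the methods for Z-ratio, p and FDR, with p and FDR from limma. The Z-ratio was the log2 difference over the standard deviation of these differences, and the signal criterion was not applied. All other calls used an adjusted p below 0.05. The fit was tested on simulated data. From each list up to 2 genes per direction were named, those with the largest called change in a WT comparison of states. Lists of myeloid, B cell, CD8 and NK, T cell, naive T cell, Th2 and activation markers were read too. Replicate letters, whose meaning is not given, were checked by the correlation of deviations from group means: every pair exceeded 0.1 for genotype in stimulated Naïve (0.2506 to 0.6479) and stimulated Th2 cells (0.1859 to 0.6615) and, in BAF180-deficient cells, for Th2 stimulation (0.2904 to 0.4267) and Th2 against Naïve (0.131 to 0.204). Promoters came from RefSeq (GRCm38.p6). Alternatives covered normalization, background, filter, arrays fitted, letter block, call rule and leaving out each array.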

Additional observations from a re-analysis of the deposited data

Results flagged for a closer look

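The response to stimulation differed between the 2 cell types for Zfp36, Zfp36l1 and Rc3h1 in both genotypes, by a contrast of the Th2 effect minus the Naïve effect in the fit to all arrays, added after the data had been seen. For Zfp36 it was 3.49 (SE 0.31, adjusted p = 6.698e-08) in WT and 3.80 (SE 0.31, adjusted p = 2.642e-08) in BAF180-deficient cells, with 3 arrays in each of the 4 groups of a contrast. For Zfp36l1 it was 3.11 (SE 0.26, adjusted p = 3.319e-08) and 3.42 (SE 0.26, adjusted p = 8.951e-09). For Rc3h1 it was 1.45 (SE 0.28, adjusted p = 0.0005778) and 1.47 (SE 0.28, adjusted p = 0.0004987). With median scaling, no background correction and 2 other detection filters, these contrasts stayed above 0 and past the threshold, at 0.75 to 3.80 and with limma adjusted p of at most 0.00753. With Z-scores, a different unit, they were 0.557 to 3.9 and also past it. The stimuli differ (1.5 h of PMA and ionomycin, 24 h of plate-bound antibodies), and the resting Naïve arrays carried the myeloid transcripts, whose part in these contrasts was not tested.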

How the results depend on the processing

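Some differences kept direction and threshold in both genotypes under each change of normalization, background, filter or arrays tried. From resting Naïve to resting Th2 cells these were the falls of Zfp36 and Zfp36l1 and the rise of Elavl1. With Naïve stimulation they were the falls of Zfp36 and of the dim Rc3h1 and the rise of Elavl1, and with Th2 stimulation the rise of Zfp36l1. Applying the rule of the genotype calls to the state differences left 1 member called with Naïve stimulation in WT and 3 for Th2 against Naïve in WT. In BAF180-deficient cells it left 2 with Naïve stimulation, 1 with Th2 stimulation and 3 for Th2 against Naïve. Median scaling left 3 for Th2 against Naïve in WT, 3 with Naïve stimulation and 1 with Th2 stimulation in BAF180-deficient cells. For the last comparison no background correction gave 1, no detection filter 1, and leaving out each array 1 to 2. Fitting the arrays of that comparison alone gave 3. The cause was not tested.

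Median scaling moved the median of all kept probes by up to 0.55 (Th2 against Naïve, BAF180-deficient, from 0.03) and changed the split of called probes, from 3362 higher and 2851 lower to 3941 and 805 with Naïve stimulation in WT, from 2626 and 2280 to 3342 and 590 for Th2 against Naïve in WT, and from 1852 and 2037 to 1127 and 717 with Th2 stimulation in WT. In BAF180-deficient cells the same splits went from 3180 and 2746 to 4173 and 857, from 2682 and 2258 to 6151 and 676, and from 1710 and 1967 to 435 and 2314. Among the differences given in the text it turned the sign of Zfp36l1 in resting Th2 cells by genotype (0.32), Zc3h12a with Naïve stimulation in WT (0.02), Zfp36 with Th2 stimulation in BAF180-deficient cells (-0.46), the interaction of Zfp36 in Th2 cells (-0.41) and the cell type contrast of Zc3h12a in BAF180-deficient cells (-0.08). Z-scores turned Zfp36 with Th2 stimulation in BAF180-deficient cells (-0.0108). None of these was called under median scaling or Z-scores.

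Among the differences given in the text, leaving out each array turned only uncalled ones. Ranges were -0.03 to 0.28 for Zfp36l2 by genotype in resting Naïve, -0.05 to 0.16 and -0.18 to 0.02 for Zc3h12a by genotype in resting and stimulated Th2, and -0.18 to 0.04 for Zfp36l2 with Th2 stimulation in WT. With Th2 stimulation in BAF180-deficient cells they were -0.09 to 0.10 for Zc3h12a, -0.19 to 0.28 for Zfp36 and -0.01 to 0.07 for Zfp36l2. With the replicate letter as a block, Zc3h12a with Naïve stimulation in WT, -0.59, was called (adjusted p = 0.04142), and no other member's call changed. Without resting Naïve WT replicate C that difference was -1.02 (adjusted p = 0.0008715).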

Other observations

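In BAF180-deficient cells, 18 of the 26 target mRNAs rose and 1 fell with Th2 stimulation (median 1.57). There 4 of 14 decapping genes fell and none rose, and 3 of 14 exosome genes rose and 1 fell. Of all genes 11.7% rose and 15.4% fell. With Naïve stimulation 8 of 14 exosome genes rose and none fell, and 5 of 12 deadenylase genes fell and 1 rose. Among target mRNAs 9 rose and 5 fell, beside 22.1% and 21.3% of all genes. For Th2 against Naïve cells 7 deadenylase genes fell and none rose, where 17.5% of all genes fell and 18.2% rose. With median scaling the shares of all genes in these cells were 2.71% higher and 17.4% lower with Th2 stimulation. The list counts there were 12 higher and 2 lower for the target mRNAs, none and 4 for the decapping genes and no call for the exosome genes. With Naïve stimulation (29.7% and 6.58% of all genes) they were 10 and none for the exosome genes, 4 and 2 for the deadenylases and 11 and 2 for the targets. For Th2 against Naïve cells (43.3% and 5.22%) they were 3 and 2 for the deadenylases. Btg1, most like Rc3h1 among the genes ranked, fell by 2.34 with Naïve stimulation in these cells and rose by 1.07 with Th2 stimulation.

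Markers of the cell states were read in WT cells. Of all genes, 23.3% rose and 21.9% fell with Naïve stimulation. The shares were 17.9% and 17.6% for Th2 against Naïve cells and 12.5% and 15.9% with Th2 stimulation. Of 8 Th2 markers, 4 were higher and none lower in resting Th2 than in resting Naïve WT cells, and 6 rose and 1 fell with Th2 stimulation. Of 7 naive T cell markers, 5 fell with Naïve stimulation in WT cells, 6 with Th2 stimulation and 3 for Th2 against Naïve cells, and none rose. Of 8 T cell markers, 4 fell and none rose with Naïve stimulation (median -0.87). In each of the other comparisons 1 of these T cell markers rose and none fell. Of 7 activation markers, 4 rose and 2 fell with Naïve stimulation, and 6 rose and none fell with Th2 stimulation. Of 4 CD8 and NK markers tested, 2 fell and none rose with Naïve stimulation in WT cells.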
